A study of Mus musculus with 19 samples.

Results

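The proteasome genes of the mouse brain were followed through 4 groups of male mice on 19 Affymetrix arrays. Members were taken by symbol: a probe set (a group of short array probes for one transcript) was a member where its only gene symbol began with Psma to Psmg followed by a digit. That gave 103 of the 45037 probe sets that were not controls, for 49 genes. Of these, 70 probe sets for 43 genes were bright enough to test, with log2 intensities that averaged 4 or more across the arrays. The groups were 5 SCA3 mice given CCI-779, 5 SCA3 mice given placebo, 5 wild-type (wt) mice given CCI-779 and 4 wt mice given placebo. SCA3 mice carry a transgene for spinocerebellar ataxia type 3, a polyglutamine disease caused by an expanded repeat in ataxin-3. The promoter of the transgene, its repeat length and the line are not given in the sources used here. CCI-779 (temsirolimus) is an ester of rapamycin that inhibits the mTOR kinase. Treatment lasted 6 weeks and began when the mice were 5 weeks old, with 3 intraperitoneal doses of 20 mg/kg weekly or placebo injections as often. RNA of brain tissue was measured, so fewer cells of a type and less RNA per cell cannot be told apart. The labels do not say that each array is a separate mouse, and p-values measure only the spread between these arrays, which may be technical.

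The proteasome is the protease of the cytosol and nucleus that degrades proteins tagged with ubiquitin. Its barrel-shaped core has outer rings of alpha subunits (Psma), which form the gate, and inner rings of beta subunits (Psmb), of which Psmb5, Psmb6 and Psmb7 carry the constitutive active sites. The regulatory cap, made of ATPases (Psmc) and non-ATPase subunits (Psmd), binds, deubiquitinates, unfolds and feeds in substrates, while activators (Psme) can cap the core without ATP, and Psmg proteins and Psmf1 act in assembly or bind the finished core. Polyglutamine proteins such as mutant ataxin-3 accumulate in aggregates that hold ubiquitin and proteasome subunits, and reports from yeast and cultured mammalian cells tie mTOR signalling to proteasome genes and assembly chaperones. The members comprised 19 core genes (15 tested), 21 regulatory genes (21 tested), 4 activator genes (4 tested) and 5 assembly genes (3 tested). A pair of symbols match by name alone and encode neither a subunit nor an assembly factor: Psmc3ip, a meiotic recombination factor, and Psme3ip1, a protein that binds Psme3. Without them 41 tested genes remained, and neither of them was called in any comparison.

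Promoter sequences were available for 41 of the 49 genes as RefSeq windows (GRCm38.p6) of 300 bases, 250 before and 50 after the start of the gene. Those shown belong to the core genes Psma5 and Psmb3, which were lower under CCI-779 in SCA3 mice, to Psmf1, which was higher in wt mice, and to the catalytic subunit Psmb5. They lie at chr3:108256676-108256975 on the plus strand (Psma5), chr11:97703184-97703483 on the plus strand (Psmb3), chr14:54617946-54618245 on the minus strand (Psmb5) and chr2:151741261-151741560 on the minus strand (Psmf1), and are printed 5′ to 3′ with motif matches in capitals.
Psma5: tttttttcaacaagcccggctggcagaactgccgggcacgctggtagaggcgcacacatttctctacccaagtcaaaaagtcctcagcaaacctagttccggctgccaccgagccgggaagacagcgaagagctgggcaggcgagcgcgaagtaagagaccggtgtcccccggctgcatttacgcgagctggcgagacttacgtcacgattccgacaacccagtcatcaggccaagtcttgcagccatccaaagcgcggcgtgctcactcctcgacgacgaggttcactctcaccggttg
Psmb3: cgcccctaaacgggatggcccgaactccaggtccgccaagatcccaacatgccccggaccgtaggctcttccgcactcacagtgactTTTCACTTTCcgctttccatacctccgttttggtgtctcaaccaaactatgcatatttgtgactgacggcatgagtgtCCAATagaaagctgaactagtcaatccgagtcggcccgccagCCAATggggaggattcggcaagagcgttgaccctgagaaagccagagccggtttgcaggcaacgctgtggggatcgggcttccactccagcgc
Psmb5: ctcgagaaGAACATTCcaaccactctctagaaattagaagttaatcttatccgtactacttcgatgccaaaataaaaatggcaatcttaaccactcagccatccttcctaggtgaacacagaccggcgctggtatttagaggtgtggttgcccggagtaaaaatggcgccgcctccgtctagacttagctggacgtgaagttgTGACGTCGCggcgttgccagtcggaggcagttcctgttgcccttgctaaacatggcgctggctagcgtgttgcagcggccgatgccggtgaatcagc
Psmf1: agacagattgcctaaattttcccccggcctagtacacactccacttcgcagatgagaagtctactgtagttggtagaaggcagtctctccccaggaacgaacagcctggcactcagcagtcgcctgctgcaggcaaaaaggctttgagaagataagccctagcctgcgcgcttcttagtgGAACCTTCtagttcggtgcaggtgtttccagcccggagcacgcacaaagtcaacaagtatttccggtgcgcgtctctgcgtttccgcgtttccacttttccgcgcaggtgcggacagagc

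Matches were sought on both strands for the antioxidant response element core TGACNNNGC, the heat shock element GAANNTTC, the interferon-stimulated response element and the NF-Y box CCAAT. Overlapping matches of different motifs were all counted. The Psmb5 window held a TGACNNNGC match and a GAANNTTC match, Psmf1 a GAANNTTC match, and Psmb3 an interferon-stimulated response element match on the reverse strand with 2 CCAAT boxes, while none of the 4 motifs matched in the Psma5 window. TGACNNNGC was present in 13.6% of the 44 member windows and in 12.4% of all 32851 windows. GAANNTTC was present in 6.82% of member windows and 7.86% of all windows, and CCAAT in 36.4% and 37.4%. The interferon-stimulated response element was present in 11.4% of member windows, those of Psmb3, Psmd4, Psmd9, Psme1 and Psmg4, and in 3.44% of all windows. These are matches of letters and describe no binding.

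CCI-779 left most proteasome transcripts of SCA3 brains within a narrow range. Of the 43 tested genes 1 rose (Psmc5) and 4 fell (Psmb3, Psma5, Psmc1 and Psmc2) at an adjusted p under 0.05 by limma, which is 11.6% of them, and 17.1% of all 10454 tested genes were called in this comparison (11.0% higher, 6.09% lower). The largest change among the members, each on its brightest probe set, was 1.42-fold. Dimmer probe sets of Psme3 and Psma1 gave 0.59 each on the log2 scale and did not pass. The members' median log2 change (CCI-779 minus placebo) was −0.05, against 0.00 over all tested genes. Of the members 69.8% (30 of 43) lay below zero, against 49.4% of all tested genes. For 41 of 43 members the 95% interval of the change stayed within 1.5-fold in either direction, as it did for 83.2% of all tested genes. In wt mice 1 member rose (Psmf1) and 1 fell (Psma5), 4.65% of the members, with 13.1% of all tested genes called (11.5% higher, 1.64% lower). There the median was −0.04 for the members and 0.08 for all genes, and 60.5% of the members lay below zero, against 33.4% of all genes. Centring each array on its median moved the all-gene median in wt mice to −0.03 and the members' median to −0.14. With centring 11 members were called lower in SCA3 mice and 6 in wt mice. Of all genes 20.1% and 10.7% were then called in either direction, and 41.7% and 51.1% of those calls were higher. With quantile normalization 8 and 4 members were called lower. There 19.3% and 9.87% of all genes were called, and 50.2% and 68.9% of those calls were higher. With SCA3 CCI-779 replicates 2 and 5, which had low array weights, left out, 1 member fell in SCA3 mice (Psmb3) and 0 rose, with 6.39% of all genes called. In that fit Psma5 gave −0.25 (adjusted p = 0.0942), Psmc1 −0.16 (adjusted p = 0.142), Psmc2 −0.18 (adjusted p = 0.114) and Psmc5 0.13 (adjusted p = 0.283). At an unadjusted p under 0.05 there were 13 of 43 members in SCA3 mice, against 3456 of all 10454 tested genes, and 10 of 43 in wt mice, against 3153 of all.

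**Figure D1:**
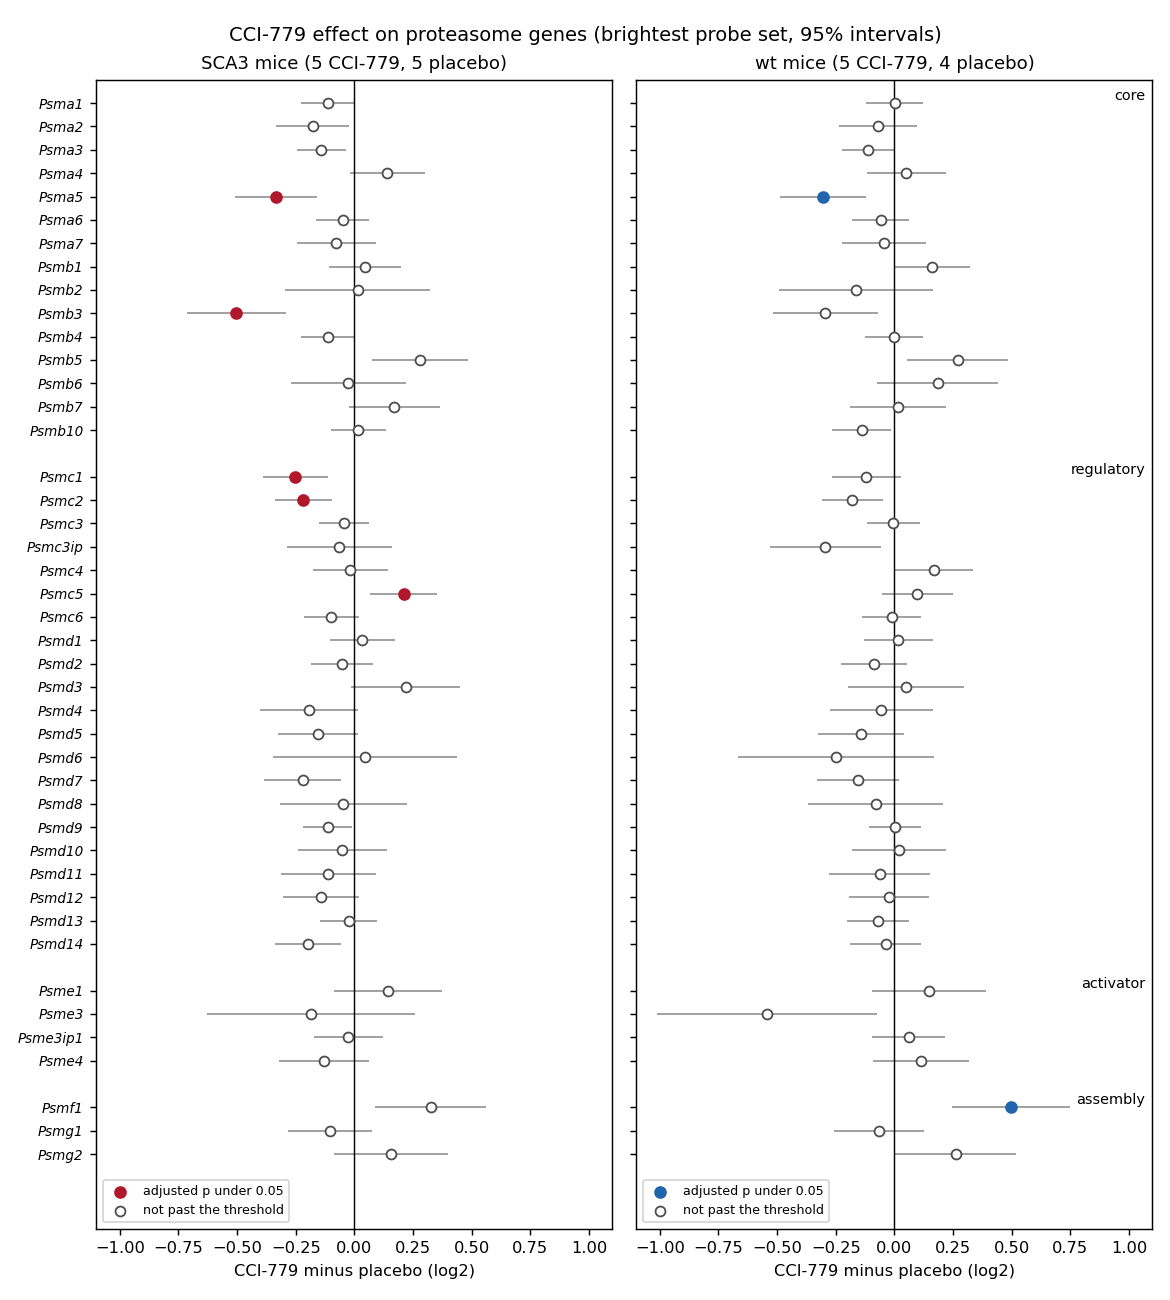
Change under CCI-779 of each tested proteasome gene (CCI-779 minus placebo, log2, brightest probe set) with its 95% interval, in SCA3 mice on the left and wt mice on the right, grouped by class; filled points have an adjusted p under 0.05. The 5 filled points in SCA3 mice and the 2 in wt mice lie between −0.50 and 0.50.

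Of the core, all 7 alpha subunits of the standard particle and 8 beta subunits were tested. In SCA3 mice 2 of the 15 core genes fell under CCI-779 and 0 rose, with a median change of −0.05, and in wt mice 1 fell and 0 rose, with a median of −0.04. These were 13.3% and 6.67% of the core genes, against 17.1% and 13.1% of all tested genes called. Psmb3, a non-catalytic beta subunit, had the largest change of the members in SCA3 mice on the brightest probe sets. Its log2 intensity was 10.35, 10.19, 10.43, 10.47 and 10.05 in SCA3 CCI-779 replicates 1 to 5, against 10.68, 10.85, 10.74, 10.78 and 10.97 in SCA3 placebo replicates 1 to 5. All 5 CCI-779 arrays were below all 5 placebo arrays, as for 4.34% of all tested genes. Psmb3 averaged 10.30 ± 0.18 with CCI-779 and 10.80 ± 0.11 with placebo (SD, n = 5 each), 1.42-fold lower (log2 −0.50, SE 0.10, adjusted p = 0.00347). In wt mice it was 10.79, 10.31, 10.47, 10.54 and 10.26 under CCI-779 and 10.91, 10.80, 10.66 and 10.70 under placebo. There CCI-779 replicate 1 lay among the placebo arrays, and the difference did not pass (log2 −0.29, SE 0.11, adjusted p = 0.0773), though it did without that array (−0.38, adjusted p = 0.0246). The difference between the genotypes' responses was −0.21 (95% interval −0.52 to 0.10, adjusted p = 0.744). The second Psmb3 probe set was lower by 0.40 in SCA3 mice (adjusted p = 0.0146) and gave −0.20 in wt mice (adjusted p = 0.239). The Psmb3 call in SCA3 mice held under all 30 alternatives (adjusted p at most 0.0424), and that of its second probe set ended when SCA3 CCI-779 replicates 2 and 5 were left out (−0.38, adjusted p = 0.0843).

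Psma5, an alpha subunit, was lower under CCI-779 in both genotypes. In SCA3 mice its log2 intensity was 10.99, 10.82, 11.23, 11.25 and 11.06 with CCI-779, and 11.39, 11.39, 11.38, 11.49 and 11.37 with placebo. The groups did not overlap, as for 4.34% of all tested genes in this direction in SCA3 mice. The change was −0.33 (SE 0.08, adjusted p = 0.0123), 1.26-fold lower. In wt mice it was 11.38, 11.06, 11.24, 11.11 and 11.19 with CCI-779, and 11.40, 11.59, 11.38 and 11.63 with placebo, where the highest CCI-779 array met the lowest placebo array. The change there was −0.31 (SE 0.09, adjusted p = 0.0315), a call that needed each of wt CCI-779 replicates 2 and 4 and wt placebo replicates 2 and 4 (without one, adjusted p up to 0.0986). It was also lost in a fit of the wt arrays alone (adjusted p = 0.0637), with no brightness filter (adjusted p = 0.0566) and with the gene's probe sets averaged (−0.20, adjusted p = 0.149). The dimmer Psma5 probe set gave −0.28 in SCA3 mice (adjusted p = 0.0538) and −0.09 in wt mice (adjusted p = 0.597). On their brightest probe sets the alpha subunits Psma1, Psma2, Psma3, Psma6 and Psma7 lay between −0.18 and −0.05 in SCA3 mice. Psma4 was at 0.14, and none of them passed. A dim Psma1 probe set had the opposite sign in SCA3 mice (0.59), at 4.95 to 5.56 with CCI-779 against 4.57 to 4.89 with placebo. It did not pass. A second, nearly as bright probe set of Psma6 was lower in SCA3 mice by 0.17 (adjusted p = 0.0214), a call that needed each of SCA3 CCI-779 replicates 2 and 5 and SCA3 placebo replicate 5 (without one, adjusted p up to 0.0605) and that was lost in a fit of the SCA3 arrays alone (adjusted p = 0.0590). Its values were 11.82, 11.70, 11.84, 11.82 and 11.73 with CCI-779 against 11.90, 11.94, 11.92, 11.96 and 12.02 with placebo, without overlap.

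None of the 3 constitutive catalytic subunits passed in either genotype. Psmb5, the chymotrypsin-like subunit, was at 10.54, 10.88, 10.70, 10.73 and 10.90 in SCA3 CCI-779 mice and 10.30, 10.39, 10.52, 10.39 and 10.76 in SCA3 placebo mice. In wt mice Psmb5 was at 10.63, 10.47, 10.73, 10.65 and 10.58 with CCI-779 and 10.56, 10.09, 10.30 and 10.42 with placebo. The groups overlapped in both genotypes, with differences of 0.28 (SE 0.10, adjusted p = 0.0618) in SCA3 mice and 0.27 (SE 0.10, adjusted p = 0.0951) in wt mice, opposite in sign to Psmb3 and Psma5. Psmb6, the caspase-like subunit, was at 10.46, 10.43, 10.61, 10.72 and 10.59 with CCI-779, against 10.36, 10.45, 10.66, 10.53 and 10.95 with placebo in SCA3 mice, and at 10.72, 10.44, 10.62, 10.64 and 10.46 with CCI-779, against 10.69, 10.19, 10.15 and 10.54 with placebo in wt mice. Its groups overlapped in both genotypes (−0.03, adjusted p = 0.909, in SCA3 mice and 0.19, adjusted p = 0.331, in wt mice). Psmb7, the trypsin-like subunit, was at 11.60, 11.89, 11.58, 11.81 and 11.92 with CCI-779, against 11.44, 11.43, 11.73, 11.60 and 11.74 with placebo in SCA3 mice, and at 11.40, 11.50, 11.56, 11.65 and 11.71 with CCI-779, against 11.72, 11.40, 11.44 and 11.61 with placebo in wt mice. Its groups overlapped as well (0.17, adjusted p = 0.221, in SCA3 mice and 0.02, adjusted p = 0.929, in wt mice, where the sign turned with quantile normalization or centring). Immunoproteasome subunits replace the constitutive ones in immune cells and after interferon. Psmb8 was at 2.82 to 3.04 on its brighter probe set and Psmb9 at 2.17 to 2.27 over all 19 arrays, below the brightness filter in every array. Psmb10, the third of them, was above it, at 9.09, 9.15, 9.04, 9.06 and 9.06 with CCI-779, against 9.09, 9.06, 9.06, 9.05 and 9.07 with placebo in SCA3 mice, and at 9.05, 9.06, 8.89, 9.01 and 9.05 with CCI-779, against 9.34, 9.05, 9.05 and 9.17 with placebo in wt mice. Its differences of 0.02 (adjusted p = 0.877) in SCA3 mice and −0.14 (adjusted p = 0.128) in wt mice did not pass. In wt mice Psmb10 passed with quantile normalization (−0.24, adjusted p = 0.0176) and with centring (−0.24, adjusted p = 0.0145). The other beta subunits, Psmb1, Psmb2 and Psmb4, differed by 0.04, 0.01 and −0.11 in SCA3 mice and by 0.16, −0.16 and −0.00065 in wt mice, and did not pass. The thymus subunit Psmb11 and the testis subunit Psma8 stayed at 1.997 to 2.05 and 2.54 to 2.72.

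Of the 21 genes of the regulatory class, Psmc3ip among them, 1 rose and 2 fell in SCA3 mice, 14.3% of them against 17.1% of all tested genes. The median there was −0.06, which was the value of Psmc3ip, with −0.07 over the ATPases and −0.08 over the Psmd genes. In wt mice 0 rose or fell (median −0.06), and the 2 with an unadjusted p under 0.05 by limma were Psmc2 and Psmc3ip. All 3 calls were among the 6 ATPases Psmc1 to Psmc6, which form the ring that unfolds substrates, and they ran in both directions. These calls are too few to set the ATPases apart from the other regulatory genes. Psmc1 was at 10.81, 10.63, 11.03, 10.86 and 10.72 in SCA3 CCI-779 mice and 10.97, 11.09, 11.04, 11.14 and 11.05 in SCA3 placebo mice. CCI-779 replicate 3 reached into the placebo range, and Psmc1 fell by 0.25 in log2 intensity (SE 0.07, adjusted p = 0.0160), a call lost in a fit of the SCA3 arrays alone (adjusted p = 0.0513). Psmc2 was at 11.93, 11.86, 12.09, 12.09 and 12.001 in SCA3 CCI-779 mice and 12.15, 12.23, 12.19, 12.21 and 12.27 in SCA3 placebo mice, with no overlap. Psmc2 fell by 0.22 in log2 intensity (SE 0.06, adjusted p = 0.0182), its second probe set gave −0.16 (adjusted p = 0.159), and the suffix of the called probe set marks probes that may match other transcripts. Suffixes of that meaning are also on the brightest probe sets of Psma6, Psmb4, Psmc3ip, Psmd11, Psme4 and Psmf1. Psmc5 was at 11.83, 12.09, 11.81, 11.88 and 11.98 in SCA3 CCI-779 mice and 11.53, 11.77, 11.74, 11.74 and 11.76 in SCA3 placebo mice, again without overlap. CCI-779 arrays lay wholly below placebo arrays for 4.34% of all tested genes in SCA3 mice, and wholly above for 8.82%. Psmc5 rose by 0.21 (SE 0.07, adjusted p = 0.0433). That call ended when any of 11 arrays was left out (adjusted p up to 0.120), namely all 5 SCA3 placebo arrays, SCA3 CCI-779 replicates 2, 4 and 5, wt CCI-779 replicate 3, and wt placebo replicates 3 and 4. The Psmc2 call was lost without SCA3 CCI-779 replicate 2 (adjusted p = 0.0545). In wt mice Psmc2, which had the smallest p of the cap there, was at 12.22, 12.02, 12.10, 12.10 and 11.95 with CCI-779, against 12.28, 12.29, 12.18 and 12.28 with placebo, with overlap. In wt mice the 3 ATPases differed by −0.12 (Psmc1, adjusted p = 0.267), −0.18 (Psmc2, adjusted p = 0.0645) and 0.10 (Psmc5, adjusted p = 0.381). The sign of Psmc5 turned when each array was centred (−0.01).

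The next smallest p in wt mice was that of Psmc3ip, at 6.29, 6.73, 6.46, 6.81 and 6.82 with CCI-779, against 6.79, 7.14, 6.94 and 6.78 with placebo (−0.29, adjusted p = 0.0951). The ATPases Psmc3, Psmc4 and Psmc6 lay between −0.10 and −0.02 in SCA3 mice. The dimmest of the Psmc6 probe sets stood apart from its others, and was chosen after its values were seen. In wt mice it was at 9.28, 9.11, 9.25, 9.26 and 9.19 with CCI-779 and 8.72, 8.66, 8.24 and 8.40 with placebo, a rise of 0.71 (SE 0.13, adjusted p = 0.00311). Its groups did not overlap, as for 14.1% of all genes in this direction. The brighter Psmc6 probe sets gave −0.01 and 0.16 in wt mice and did not pass. None of the 14 Psmd genes passed in either genotype, and 3 had an unadjusted p under 0.05 by limma in SCA3 mice and 0 in wt mice. Psmd14, the deubiquitinase of the cap, differed by −0.20 in SCA3 mice (SE 0.07, adjusted p = 0.0568), and its structural partner Psmd7 by −0.22 (SE 0.08, adjusted p = 0.0627). Psmd7 was at 9.99, 10.21, 10.15, 10.12 and 10.22 with CCI-779 and 10.25, 10.36, 10.40, 10.37 and 10.42 with placebo, with every CCI-779 array below every placebo array. A dimmer Psmd7 probe set did not show this fall (0.01 in SCA3 mice and 0.02 in wt mice). Of all tested genes 4.34% had CCI-779 arrays wholly below placebo arrays in SCA3 mice and 8.82% wholly above. Among the members these were 4 (Psmb3, Psma5, Psmc2 and Psmd7) and 1 (Psmc5). Psmd4, a ubiquitin receptor, differed by −0.19 (adjusted p = 0.197), and the large scaffold subunits Psmd1 and Psmd2 by 0.03 and −0.05. Psmd5, Psmd9 and Psmd10, chaperones that assemble the base of the cap, differed by −0.16, −0.11 and −0.05 in SCA3 mice and by −0.14, 0.00 and 0.02 in wt mice. Psmd11, a subunit that ties the cap to the core, was measured by 4 tested probe sets, which lay below zero in both genotypes (−0.30 to −0.07 in SCA3 mice, −0.34 to −0.06 in wt mice) and did not pass.

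**Figure D2:**
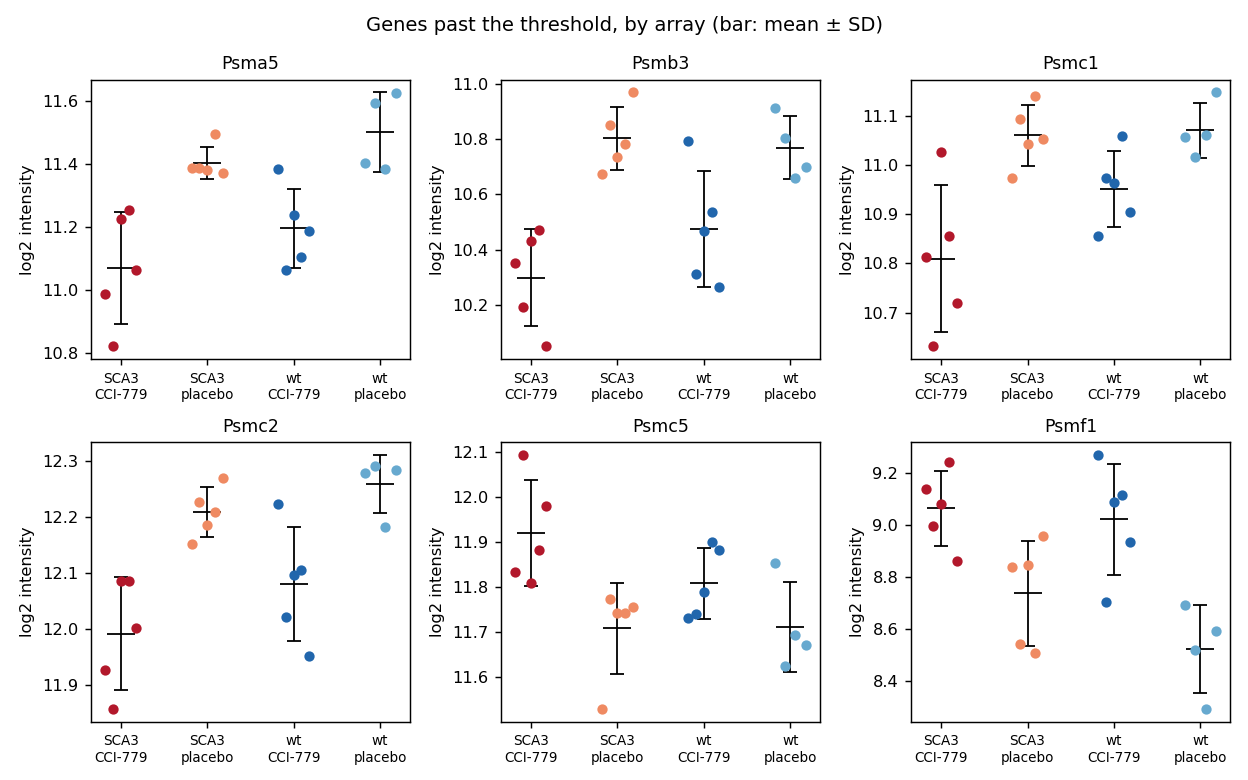
Log2 intensity of the 6 proteasome genes past the threshold in SCA3 or wt mice, 1 panel a gene, with a point for each array and bars for the mean ± SD of each group (SCA3 CCI-779, SCA3 placebo and wt CCI-779, n = 5; wt placebo, n = 4). Psmb3, Psma5, Psmc2 and Psmc5 do not overlap between the SCA3 groups, and Psmf1 does not overlap between the wt groups. Of all tested genes 4.34% lie wholly lower and 8.82% wholly higher with CCI-779 in SCA3 mice, and 14.1% wholly higher in wt mice.

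None of the 4 activator genes, counting Psme3ip1, passed in either genotype on its brightest probe set. At an unadjusted p under 0.05 by limma there were 0 in SCA3 mice and 1 in wt mice. Psme1, a subunit of the interferon-inducible activator, was at 8.997, 9.13, 9.21, 9.36 and 9.04 with CCI-779, against 8.69, 9.16, 8.99, 9.10 and 9.09 with placebo in SCA3 mice, and at 9.39, 8.98, 9.09, 9.11 and 8.99 with CCI-779, against 9.20, 8.69, 8.92 and 9.06 with placebo in wt mice. Its groups overlapped, with differences of 0.14 (adjusted p = 0.407) in SCA3 mice and 0.15 in wt mice (adjusted p = 0.418). Its partner Psme2 shares its probe set with a second symbol and was no member. Psme3, the nuclear activator, was the most variable member, with a within-group SD of 0.36 against a median of 0.12 over the members and 0.15 over all genes. Its brighter probe set was at 8.18, 9.46, 8.58, 8.71 and 9.41 in SCA3 CCI-779 mice and 8.44, 9.23, 9.09, 9.41 and 9.09 in SCA3 placebo mice, a difference of −0.18 (adjusted p = 0.597). In wt mice it was at 8.69, 8.78, 8.52, 8.83 and 8.67 with CCI-779 and 9.40, 9.04, 9.18 and 9.35 with placebo. The wt groups did not overlap, as for 2.42% of all genes in this direction, and the difference of −0.54 (SE 0.22) had an adjusted p of 0.117 in the fit of all arrays and of 0.0181 in a fit of the wt arrays alone. The dimmer Psme3 probe set was at 7.46, 10.26, 8.23, 8.47 and 10.45 in SCA3 CCI-779 mice and 8.32, 8.48, 8.47, 8.31 and 8.34 in SCA3 placebo mice. Replicates 2 and 5 thus stood far above all other arrays, and the difference of 0.59 (SE 0.41, adjusted p = 0.353) turned to −0.33 without them (adjusted p = 0.297). Psme4, which encodes an activator of nuclear proteasomes, was on its brightest probe set at 9.78, 9.54, 9.73, 9.91 and 9.51 with CCI-779, against 9.78, 9.93, 9.78, 9.91 and 9.72 with placebo in SCA3 mice, and at 10.21, 9.80, 9.70, 9.78 and 9.84 with CCI-779, against 9.66, 9.74, 9.76 and 9.86 with placebo in wt mice. These overlapping groups differed by −0.13 (adjusted p = 0.363) and 0.11 (adjusted p = 0.469). A second Psme4 probe set rose in wt mice, at 9.31, 9.15, 9.21, 9.07 and 9.10 with CCI-779 against 9.07, 8.63, 8.75 and 8.89 with placebo (log2 0.33, SE 0.07, adjusted p = 0.00992), and was not past the threshold in a fit of the wt arrays alone (adjusted p = 0.0680). The 4 tested Psme4 probe sets were all above zero in wt mice, and 3 of 4 were in SCA3 mice.

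**Figure D3:**
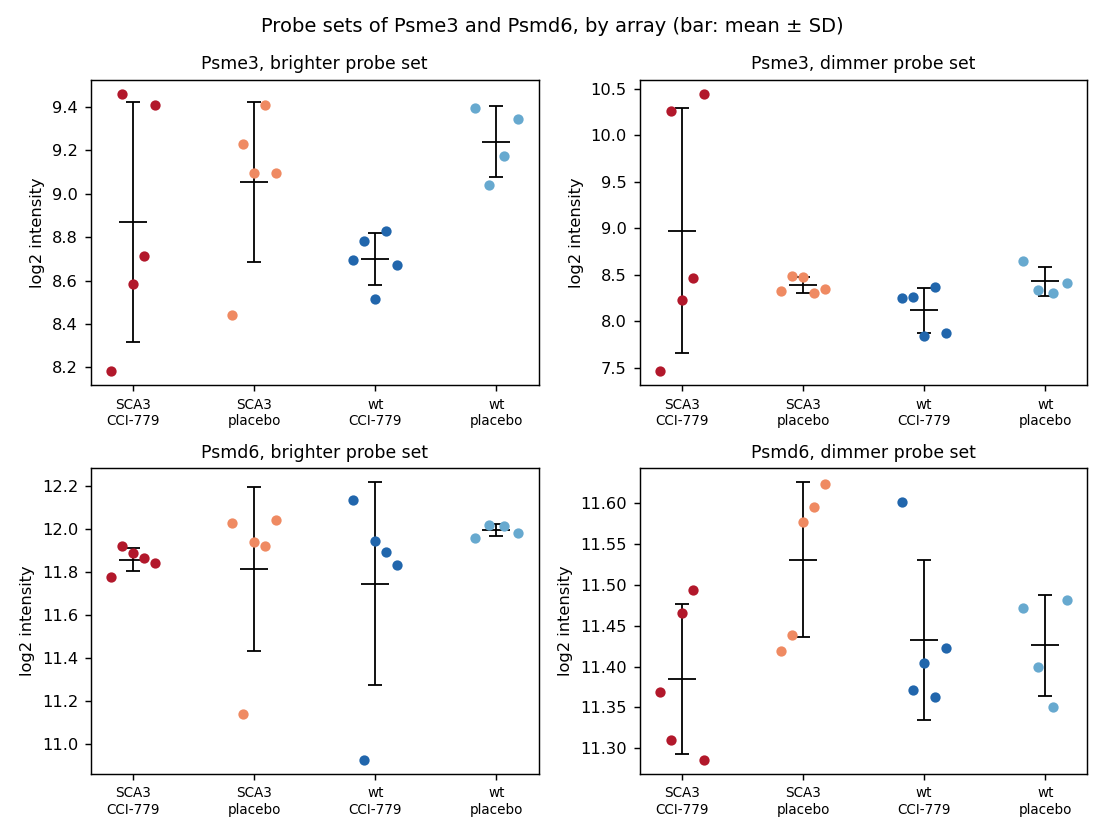
Log2 intensity on both tested probe sets of Psme3 (top) and Psmd6 (bottom), with a point for each array in the order of replicates and bars for the mean ± SD of each group. SCA3 CCI-779 replicates 2 and 5 reach 10.26 and 10.45 on the dimmer Psme3 probe set, and SCA3 placebo replicate 2 and wt CCI-779 replicate 2 drop to 11.14 and 10.93 on the brighter Psmd6 probe set.

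Among the assembly genes Psmf1 rose in wt mice. Psmf1 encodes a protein that binds the core and inhibits it in the test tube. It was at 9.27, 8.70, 9.09, 9.11 and 8.93 in wt CCI-779 mice and 8.69, 8.52, 8.29 and 8.59 in wt placebo mice, 1.41-fold higher (log2 0.50, SE 0.12, adjusted p = 0.0139). Every CCI-779 array was above every placebo array, as for 14.1% of all genes, though the lowest and highest lay next to each other. In SCA3 mice it was at 9.14, 8.997, 9.08, 9.24 and 8.86 with CCI-779 and 8.84, 8.54, 8.85, 8.51 and 8.96 with placebo, with overlap (log2 0.33, SE 0.11, adjusted p = 0.0600). The difference between the genotypes' responses was −0.17 (95% interval −0.52 to 0.18, adjusted p = 0.801). The suffix of the called probe set marks probes that may match other transcripts. The other tested Psmf1 probe sets, without such a suffix, gave 0.06 (adjusted p = 0.496) and 0.26 (adjusted p = 0.109) in wt mice. The first of these turned to −0.04 with quantile normalization or with centring of each array. The call in wt mice was lost without wt placebo replicate 3 (0.42, adjusted p = 0.0551). Psmg1 and Psmg2, which form a chaperone pair for the alpha ring, differed by −0.10 and 0.16 in SCA3 mice and by −0.07 and 0.26 in wt mice, and neither passed (adjusted p = 0.167 for Psmg2 in wt mice). Psmg2's second probe set gave −0.25 in SCA3 mice, the opposite sign. The chaperones Psmg3 and Psmg4 stayed below the filter, at 3.16 to 3.24 and 2.48 to 2.65 on their brighter probe sets.

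Probe sets of one gene often disagreed in sign. Of the 70 tested probe sets 1 was called higher and 6 lower in SCA3 mice, where 15.2% of all 20473 tested probe sets were called (10.2% higher, 4.95% lower), and 4 were called higher and 1 lower in wt mice, where 11.9% were (9.78% higher, 2.11% lower). Of the 20 genes with several tested probe sets, 9 had one sign throughout in SCA3 mice and 14 in wt mice. Besides those described, a dim Psma3 probe set was higher in wt mice by 0.46 (adjusted p = 0.0408), while the bright one gave −0.11. Leaving out any of the 4 wt placebo arrays, or replicate 1, 2 or 3 of the wt CCI-779 arrays, ended that dim call (adjusted p up to 0.115). Among the members the median within-group SD was 0.12, close to the 0.13 of the 2600 tested genes of similar brightness. Psmd6 varied most after Psme3 (SD 0.31). Its brighter probe set was at 11.14 in SCA3 placebo replicate 2 and 10.93 in wt CCI-779 replicate 2 and between 11.78 and 12.13 on all other arrays, a spread that the dimmer one (11.29 to 11.62) did not show.

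No tested member passed the threshold between SCA3 and wt mice. Under placebo 0 of 43 were called by limma and 1 had an unadjusted p under 0.05, Psma1, with a difference (SCA3 minus wt) of 0.14 (adjusted p = 0.787). Of all 10454 tested genes 0% were called and 556 had an unadjusted p under 0.05. Under CCI-779 0 of 43 were called and 4 had an unadjusted p under 0.05 (adjusted p at least 0.232), with 0.0191% of all genes called and 1892 of them at an unadjusted p under 0.05. These 4 were Psma4 (0.20), Psmb7 (0.20), Psmb4 (−0.13) and Psmc1 (−0.14). For 41 of 43 members under placebo and 42 of 43 under CCI-779 the 95% interval stayed within 1.5-fold (95.3% and 97.7%, against 92.7% and 90.1% of all tested genes), with Psme3 and, under placebo, Psmd6 outside. The interaction of genotype and CCI-779 gave 0 calls among the members and 0 at an unadjusted p under 0.05, with 0% of all genes called and 868 of them at an unadjusted p under 0.05. Its median SE of 0.11 on the log2 scale limits what could be seen.

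The core and regulatory genes also varied from array to array. In wt CCI-779 replicate 2 all 15 core genes and 17 of 21 regulatory genes were below their mean over all arrays, and in SCA3 CCI-779 replicate 1 these were 13 and 19. In SCA3 placebo replicate 5 only 1 and 3 were below, and in wt placebo replicate 1 the counts were 0 and 4. Over all 10454 tested genes the counts below in these arrays were 5374, 5689, 4715 and 5358, in the order given. The 21 regulatory genes include Psmc3ip. The core median deviation ranged from −0.08 to 0.04 in SCA3 CCI-779 mice and from −0.02 to 0.13 in SCA3 placebo mice, and from −0.09 to 0.05 in wt CCI-779 mice and from −0.03 to 0.09 in wt placebo mice. The ranges overlapped in both genotypes.

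**Figure D4:**
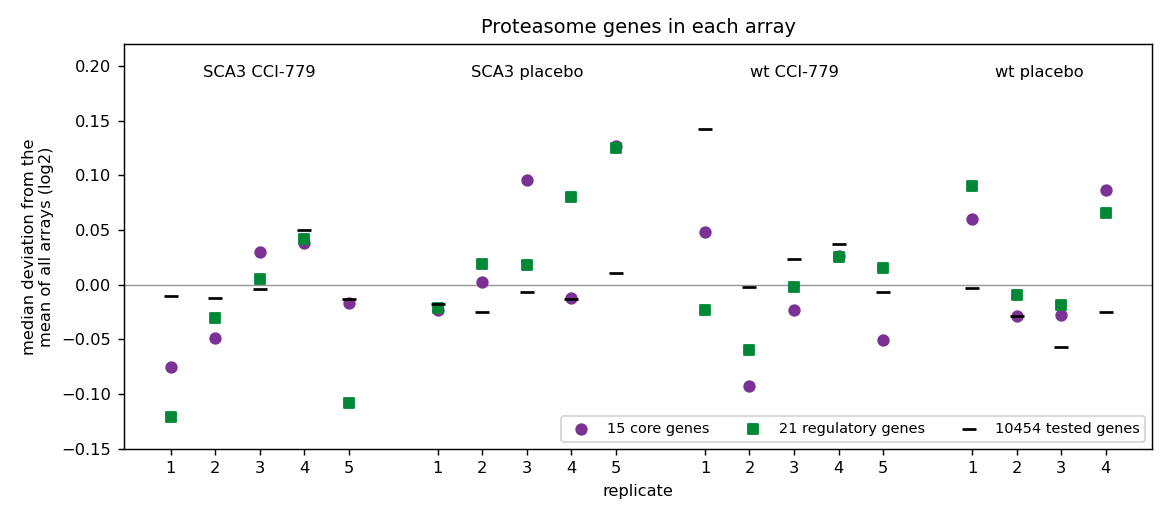
Median deviation of the 15 core and 21 regulatory genes from each gene's mean over all arrays (log2), for every array by group, with the median over all 10454 tested genes as a dash. Replicate 2 of the wt CCI-779 group has the lowest core median (−0.09) and replicate 5 of the SCA3 placebo group the highest (0.13).

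Of 23 listed partners and biogenesis factors 19 were tested, and in SCA3 mice 3 rose and 2 fell (median 0.05), while in wt mice 3 rose and 0 fell (median 0.12). Of all tested genes 17.1% and 13.1% were called in these comparisons. Ubqln4, a shuttle that brings ubiquitinated proteins to the proteasome, was at 9.53, 9.79, 9.20, 9.35 and 9.88 in SCA3 CCI-779 mice and 8.28, 8.38, 8.27, 8.37 and 8.38 in SCA3 placebo mice. In wt mice it was at 9.79, 9.17, 9.49, 9.50 and 8.92 with CCI-779 and 8.43, 8.01, 8.61 and 8.43 with placebo. The groups overlapped in neither genotype, and the rise was 2.32-fold in SCA3 mice (log2 1.21, SE 0.15, adjusted p = 2.24e-04) and 2.01-fold in wt mice (log2 1.005, SE 0.16, adjusted p = 0.00178). Nfe2l1, the transcription factor that raises proteasome genes when the proteasome is inhibited, was at 8.52, 8.97, 8.41, 8.82 and 8.59 in SCA3 CCI-779 mice and 8.10, 8.09, 8.28, 8.16 and 8.41 in SCA3 placebo mice. In wt mice Nfe2l1 was at 8.67, 8.46, 8.44, 8.59 and 8.39 with CCI-779, against 8.23, 7.99, 8.28 and 8.12 with placebo, and the groups overlapped in neither genotype. In SCA3 mice they nearly met, with a lowest CCI-779 value of 8.413 and a highest placebo value of 8.412. CCI-779 arrays lay wholly above placebo arrays for 8.82% of all genes in SCA3 mice and 14.1% in wt mice. Nfe2l1 rose 1.37-fold in SCA3 mice (log2 0.45, SE 0.10, adjusted p = 0.00681) and 1.28-fold in wt mice (log2 0.35, SE 0.11, adjusted p = 0.0388). Ngly1, the enzyme that processes Nfe2l1 by removing its sugars, was at 9.51, 9.41, 9.56, 9.55 and 9.41 with CCI-779, against 9.37, 9.23, 9.12 and 9.20 with placebo in wt mice. It rose there without overlap between the groups, by 0.26 (adjusted p = 0.0273), and differed by 0.14 in SCA3 mice (adjusted p = 0.185). Leaving out wt placebo replicate 2, 3 or 4, or wt CCI-779 replicate 1, 3 or 4, ended the wt calls of Nfe2l1 (adjusted p up to 0.124) and Ngly1 (adjusted p up to 0.0902). Both were also lost with quantile normalization (adjusted p = 0.0919 for Nfe2l1 and 0.0962 for Ngly1) and with centring (adjusted p = 0.0930 and 0.121). The calls of Ubqln4 in both genotypes and of Nfe2l1 in SCA3 mice held under all 30 alternatives.

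The other calls among the partners changed with single arrays. Rad23b, also a shuttle for ubiquitinated proteins, rose in SCA3 mice by 0.51 (SE 0.16, adjusted p = 0.0429). Replicates 2 and 5 stood at 11.59 and 11.76, and the other CCI-779 arrays at 10.73 to 10.95, against 10.48 to 10.77 with placebo. Without those arrays the difference was 0.17 (adjusted p = 0.328), and 12 arrays each ended the call when left out: all 5 SCA3 placebo arrays, SCA3 CCI-779 replicates 2 and 5, wt CCI-779 replicates 2, 3 and 4, and wt placebo replicates 2 and 4. Txnl1, a redox protein bound to the cap, was at 11.55, 11.34, 11.54, 11.56 and 11.24 with CCI-779, against 11.81, 11.52, 11.73, 11.61 and 11.73 with placebo in SCA3 mice. Zfand5, a proteasome activator, was at 12.46, 12.18, 12.44, 12.48 and 12.18 with CCI-779, against 12.62, 12.45, 12.64, 12.59 and 12.57 with placebo in the same mice. The groups of both genes overlapped. Txnl1 fell by 0.23 on the log2 scale (adjusted p = 0.0311) and Zfand5 also fell by 0.23 (adjusted p = 0.0381). With the arrays of SCA3 CCI-779 replicates 2 and 5 left out these were −0.13 (adjusted p = 0.249) and −0.12 (adjusted p = 0.308). With each gene's probe sets averaged, Txnl1 gave −0.03 (adjusted p = 0.735) and Zfand5 −0.19 (adjusted p = 0.247). Either call also ended without 1 of those arrays or without SCA3 placebo replicate 1, 3 or 5, and Zfand5's without SCA3 placebo replicate 4 (adjusted p up to 0.0868 and 0.107). Pomp, the maturation factor of the core, differed by −0.18 in both genotypes and did not pass (adjusted p = 0.0577 in SCA3 mice and 0.0885 in wt mice). Of 13 genes for ubiquitin and its activation 7 were tested and 0 passed by limma in either genotype. In these comparisons 17.1% (SCA3 mice) and 13.1% (wt mice) of all tested genes were called. The smallest p of the 7 was that of Ube2k, a ubiquitin-conjugating enzyme, in SCA3 mice (−0.18, adjusted p = 0.0644). Of 10 class I antigen processing genes 4 were tested and 1 rose, Tapbp, which loads peptides, in wt mice (0.40, adjusted p = 0.0280), with 0.31 in SCA3 mice (adjusted p = 0.0558). The wt call ended without wt CCI-779 replicate 1 or 4 or wt placebo replicate 2 or 4 (adjusted p up to 0.105).

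**Figure D5:**
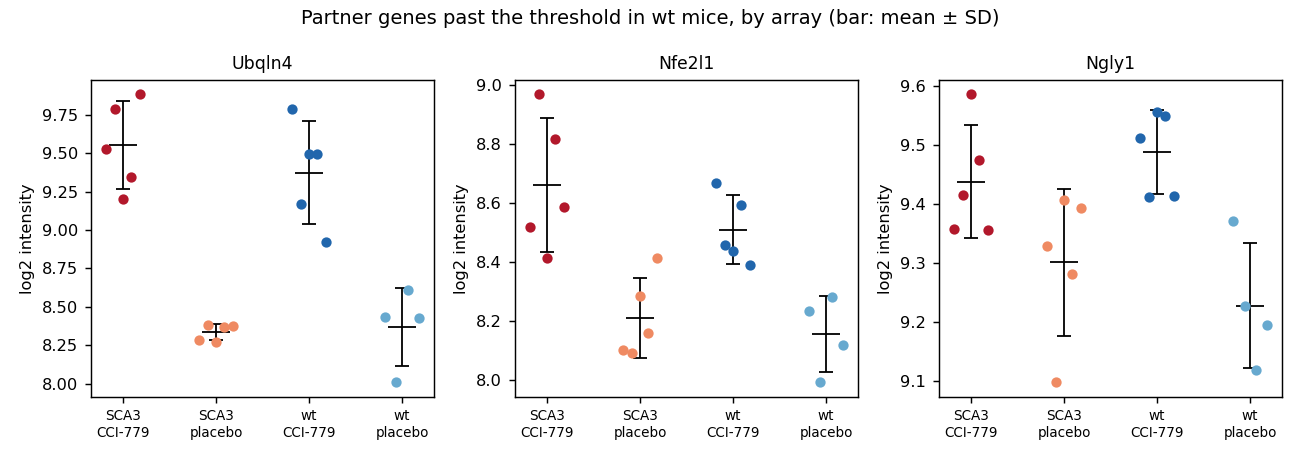
Log2 intensity of Ubqln4, Nfe2l1 and Ngly1, the partner genes past the threshold in wt mice, with a point for each array and bars for the mean ± SD of each group. The CCI-779 arrays of Ubqln4 lie at 8.92 to 9.88 in both genotypes, above the placebo arrays at 8.01 to 8.61.

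Control probe sets and cell type markers also differed with CCI-779. Mean intensity per array was 443 to 469, and replicates of a group correlated at 0.964 to 0.995 with no identical pair. Hybridisation spikes, labelled control RNA added with the sample, averaged 10.55 in SCA3 CCI-779 mice against 11.36 in SCA3 placebo mice, and 10.23 in wt CCI-779 mice against 11.13 in wt placebo mice (log2). The CCI-779 arrays lay wholly below the placebo arrays, at 10.44 to 10.65 against 11.19 to 11.60 (SCA3) and 9.97 to 10.65 against 10.88 to 11.49 (wt). Labelling spikes, a further set of control probe sets, averaged 4.96 against 5.71 in SCA3 mice, without overlap. In wt mice they averaged 5.07 against 5.50, with overlap. The 3′ minus 5′ difference of the Gapdh control probe sets was −0.35 against −0.52 in SCA3 mice and −0.28 against −0.54 in wt mice, without overlap in either genotype. That of actin reached 2.55 in wt CCI-779 replicate 1. Limma's array weights were lowest for that array and for SCA3 CCI-779 replicates 2 and 5 (0.19, 0.44 and 0.53). The neuron markers averaged 12.80 to 13.03 on every array, and of 6 only Rbfox3 fell, by 0.27 in SCA3 mice (adjusted p = 0.00927) and by 0.38 in wt mice (adjusted p = 0.00309). Of all tested genes 6.09% were called lower in SCA3 mice and 1.64% in wt mice. Of 8 tested microglia markers 3 fell in each genotype, Csf1r and P2ry12 in both, with group means of the list of 7.98 against 8.21 in SCA3 mice and 7.85 against 8.18 in wt mice (ranges 7.82 to 8.14, 8.07 to 8.34, 7.55 to 7.97 and 8.12 to 8.30). Their changes ran in both directions, from −0.60 to 0.42 in SCA3 mice and from −0.62 to 0.25 in wt mice, and 0 were called higher. Of 6 tested oligodendrocyte markers 3 fell in SCA3 mice and 0 in wt mice, at 12.54 against 12.95 and 12.55 against 12.69 (ranges 12.36 to 12.71, 12.63 to 13.20, 12.31 to 12.68 and 12.54 to 12.95). Slc1a2 rose in both genotypes among 6 astrocyte markers and Aldh1l1 in wt mice, and in SCA3 mice Kcne2 of 5 choroid plexus markers fell and Bgn of 5 meningeal markers rose. The 3 tested endothelial markers and the 1 tested blood marker had 0 calls by limma. The spike and Gapdh differences coincided with treatment, and the part of all these measures in the proteasome results was not tested.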

How the data were processed

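RNA of 19 mouse brain samples was measured on Affymetrix arrays. The deposited values are linear intensities per probe set that the authors made with the GCRMA method, as the submitters' processing notes name it without a version. Their log2 was taken with no pseudocount (deposited intensities 2.26 to 73595). Of 45037 probe sets that were not controls, 20473 with a mean log2 of at least 4 were tested; 34945 had 1 gene symbol, 932 several and 9160 none. Each gene was represented by its brightest tested probe set (10454 genes). A single limma 3.58.1 fit (R 4.3.3) of 4 group means over all arrays gave 5 contrasts, with Benjamini-Hochberg adjustment over all tested probe sets at 0.05; every adjusted p in the text is from this fit or an alternative of it. It was tested on simulated data. Replicate numbers come from the labels, except wt CCI-779 replicate 1, which has none there. Values in every array were given, per class and genotype, for at most 5 genes called higher and 5 called lower, for the constitutive and immunoproteasome catalytic subunits and the activators, and for the 2 genes of smallest p in a class with no call; of other lists, the genes past the threshold, or else those of smallest p, were named. Members and lists were chosen with earlier results of these data known, and Psmd6, Psmd7, Psmd14 and all probe sets other than the brightest were named after their values were seen. The alternatives were 12 in kind, and the number of arrays limits the precision.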

Additional observations from a re-analysis of the deposited data

Results flagged for a closer look

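In groups of 4 or 5 arrays, 12 of 136 groups of values held 1 array far from the others, and 5% of 136 is 6.8. Some of these probe sets, Psmd6 among them, were named after their values were seen, and some belong to the same gene. The 6.8 is therefore no measure of chance here. In SCA3 CCI-779 mice these were Psmf1 replicate 4 on 2 probe sets, at 8.17 (others all 8.02) and at 7.25 (others 6.84 to 6.95). In SCA3 placebo mice they were Psma5 replicate 4 at 11.49 (others 11.37 to 11.39), Psmc5 replicate 1 at 11.53 (others 11.74 to 11.77), Psmd6 replicate 2 at 11.14 (others 11.92 to 12.04) and Psmc3ip replicate 1 at 7.08 (others 6.81 to 6.82). In wt CCI-779 mice they were Psmb10 replicate 3 at 8.89 (others 9.01 to 9.06), Psme4 replicate 1 at 10.21 (others 9.70 to 9.84), Psmd6 replicate 2 at 10.93 (others 11.83 to 12.13), Txnl1 replicate 2 at 11.57 (others 11.71 to 11.72) and Zfand5 replicate 5 at 12.61 (others 12.40 to 12.44). In wt placebo mice it was Psmc2 replicate 3 at 12.18 (others 12.28 to 12.29).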

How the results depend on the processing

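Of 2440 values recomputed over 30 settings, 2175 kept their direction and side of the threshold, or moved by less than their limit, and 26 reversed. The genotype and interaction counts of members were 0 under every setting, and the cause of the changes below was not tested. In SCA3 mice the count of members called higher (1) was 0 with no filter, with centring of each array, with only the arrays compared, with the replicate block and without SCA3 CCI-779 replicates 2 and 5, and 0 to 2 when 1 array was left out. The count called lower (4) was 8 with quantile normalization, 11 with centring and 1 without replicates 2 and 5, and 3 to 7 when 1 array was left out (7 without wt CCI-779 replicate 1). In wt mice the count called higher (1) was 2 with array weights and 2 with probe sets averaged per gene, and 0 to 2 when 1 array was left out. The count called lower (1) was 0 with no filter and with the mean of probe sets, 4 with quantile normalization, 6 with centring, 2 with trended robust eBayes, 4 with array weights, 2 without SCA3 CCI-779 replicates 2 and 5, and 3 without these and wt CCI-779 replicate 1, and 0 to 3 when 1 array was left out. The share of all tested genes called was 17.1% in SCA3 mice and 13.1% in wt mice, against 19.3% and 9.87% with quantile normalization and 20.1% and 10.7% with centring. It was 6.39% and 15.9% without SCA3 CCI-779 replicates 2 and 5, and 10.8% and 12.7% without these and wt CCI-779 replicate 1. Without wt CCI-779 replicate 1 alone it was 20.5% and 9.05%. Among all genes the share of calls that were higher was 64.4% in SCA3 mice and 87.6% in wt mice, against 50.2% and 68.9% with quantile normalization and 41.7% and 51.1% with centring. Class medians moved as follows (SCA3, then wt). With no filter the assembly median was 0.0030 and 0.015. With centring the median of all members was −0.11 and −0.14, of the core −0.11 and −0.15 and of the regulatory genes −0.12 and −0.16, and with quantile normalization the regulatory median in wt mice was −0.12. With the mean of probe sets the activator and assembly medians in SCA3 mice were 0.11 and −0.049, and the core median in wt mice 0.017. Signs reversed with quantile normalization for Psmb7 in wt mice (−0.018), Psmb10 in SCA3 mice (−0.034) and a Psmf1 probe set (−0.020 and −0.042). With centring they reversed for Psmc5 (−0.0069) and Psmb7 (−0.088) in wt mice, Psmb10 (−0.043) and Psmd6 (−0.015) in SCA3 mice and the same Psmf1 probe set (−0.023 and −0.044). With the mean of probe sets Psme3 (0.20), Psme4 (0.077), Psmg2 (−0.049) and Psmd6 (−0.051) reversed in SCA3 mice, and without SCA3 CCI-779 replicates 2 and 5, with or without wt CCI-779 replicate 1, Psmb6 (0.0099) and the dimmer Psme3 probe set (−0.33) did. With 1 array left out, signs reversed within the ranges of Psmb6 (−0.083 to 0.066), Psmb10 (−0.00045 to 0.026) and Psmd6 (−0.12 to 0.10) in SCA3 mice and of Psmb7 (−0.031 to 0.076) in wt mice. The labels do not say whether same-numbered arrays share more than a number. The correlation of their deviations from group means was −0.307 to 0.290 over 24 pairs (median 0.033), against −0.367 to 0.325 over 97 other pairs (median −0.0054). Ranges that overlap this widely cannot decide it. With the replicate block Psmc5 no longer passed in SCA3 mice (adjusted p = 0.0617), and Psmd14 (adjusted p = 0.0376) and Psmd7 (adjusted p = 0.0392) did, as did the dimmer Psma5 probe set (adjusted p = 0.0363). In wt mice the block also ended the calls of Nfe2l1 (adjusted p = 0.185), Ngly1 (adjusted p = 0.0715), Tapbp (adjusted p = 0.0824) and the dim Psma3 probe set (adjusted p = 0.0679), and in SCA3 mice those of Rad23b (adjusted p = 0.0561) and Zfand5 (adjusted p = 0.0503). Tapbp in wt mice was also lost with quantile normalization (adjusted p = 0.0634) and centring (adjusted p = 0.0583), while Psmc2 in wt mice passed under both (adjusted p = 0.0347 and 0.00788), as did Psmb3 (adjusted p = 0.0391 and 0.0180).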
